A study of Rattus norvegicus with 3 samples.

Results

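Cultured heart muscle cells were compared after 24 h and after 1 h of dexamethasone (Dex), so that transcripts that peaked early, stayed up or down, or moved only late could be told from each other. Members of the comparison were all gene rows with a value of at least 1 FPKM at 24 h or at 1 h, which held for 10665 of 17450 rows. FPKM is the number of fragments scaled by transcript length and by library size, so levels of different genes can be set side by side. Of the members, 10297 reached 1 FPKM at both times, 186 only at 24 h and 182 only at 1 h. The row just inside the threshold was Tm4sf19 (1.001 FPKM at 1 h and 0.969 at 24 h), and the row just outside was Adap2 (0.989 and 0.997 FPKM).

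The cells were neonatal rat ventricular myocytes from 1-day-old Sprague Dawley pups, freed by enzyme digestion and enriched on a Percoll gradient and by preplating, which removes cells that attach quickly. They were plated in DMEM-F12 with 10% fetal bovine serum and moved to serum-free medium after 24 h. They then received 100 nM Dex for 1 h or 24 h, or ethanol as control, and the control has no stated time, so the duration of Dex and the time in culture cannot be told apart. Each group had 1 deposited value per gene, with titles that name 2 libraries, so the spread between libraries could not be computed, and the number of animals per pool is not stated in the labels.

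Dex is a synthetic glucocorticoid. It binds the glucocorticoid receptor (GR, gene Nr3c1), which enters the nucleus, binds DNA at glucocorticoid response elements and raises transcription of some genes, while it lowers that of others, often inflammatory ones, through other DNA-bound factors. In the heart, glucocorticoids are known for roles in fetal maturation, contraction and metabolism. Nr3c1 itself had 19.7 FPKM in control, 19.6 at 1 h and 13.3 at 24 h and was not called, in a locus that it shares with other rows, so its value is uncertain.

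Summed FPKM was 652814 in control, 643628 at 1 h and 658159 at 24 h, and sequencing depth is unknown. Log2 folds below have 1 added to both FPKM values unless they are called plain ratios, and the ± on a plain log2 ratio is the standard error (SE) implied by the authors' test statistic. Genes are said to have risen or fallen only where the authors' deposited table calls them at a q-value of at most 0.05. That test compares the libraries of these groups, and the labels do not say whether it took the 2 libraries of a group separately. Cardiomyocyte transcripts were abundant in every group. Nppa, the atrial natriuretic peptide, stood at 8985, 8960 and 9749 FPKM in control, at 1 h and at 24 h, and none of the 11 tested cardiomyocyte markers was called between the times. Transcripts listed as markers of other cells were abundant too. The smooth muscle actin Acta2 stood at 4806, 4142 and 5440 FPKM and Vim, an intermediate filament of mesenchymal cells, at 2296, 2268 and 2117. These levels do not show which cells expressed them.

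Between 1 h and 24 h a small share of genes was called, and more genes rose than fell. Of 10659 tested members 527 were called (4.94%), 354 higher at 24 h (3.32%) and 173 lower (1.62%). Over all genes with a test, members or not, the share was 4.92%. The median fold of all members was −0.01, with 5135 above 0 and 5529 below. Among the genes called higher the median fold was 0.94 and 156 rose at least 2-fold, 38 at least 4-fold and 10 at least 8-fold. Among those called lower the median was −0.88, with 64 at least 2-fold, 7 at least 4-fold and 1 at least 8-fold lower. Between 1 h and control, by the same rule, 98 of 10640 tested members had been called (0.921%), and 675 of 10658 were called between 24 h and control (6.33%), 457 higher (4.29%) and 218 lower (2.05%). The 3 comparisons share their samples pairwise, so their calls are not independent of each other. The share called fell from 9.14% of members with a mean of under 5 FPKM to 3.06% of those between 20 and 100 FPKM, and it was 4.23% above that.

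The highest riser was Orm1, the acute-phase plasma protein orosomucoid (rn5 chromosome 5, 83293901 to 83297054). Orm1 stood at 0.0256 FPKM in control, 2.31 at 1 h and 109 at 24 h. Control was near 0, and 24 h stood far above both other values. The plain log2 ratio of 1 h over control was 6.49 ± 2.37 and was not called. The fold of 24 h over 1 h was 5.05, the plain log2 ratio was 5.56 ± 0.45, and q was 0.00238 in the authors' deposited table, the smallest value it holds. Many genes share it, since 208 members called higher and 78 called lower between the times had the smallest deposited p-value. In the same table Orm1 was not called between 24 h and control (unadjusted p 0.2508), even though those values lay further apart.

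Ace, the angiotensin-converting enzyme (rn5 chromosome 10, 93922061 to 93939118), stood at 1.35 FPKM in control, 2.31 at 1 h and 41.6 at 24 h. Nearly all of its increase came after the first hour, with a fold of 3.69 (plain ratio 4.17 ± 0.36). Zbtb16, a zinc finger repressor also called PLZF (chromosome 8, 51578464 to 51739786), was at 0.613, 0.732 and 21.1 FPKM, a fold of 3.67 (plain ratio 4.85 ± 0.44). Kcne1, an accessory subunit of cardiac potassium channels (chromosome 11, 36101918 to 36114188), was at 0.603, 0.356 and 15.9 FPKM, a fold of 3.64 (plain ratio 5.48 ± 0.85). These genes were low in both control and 1 h and rose by 24 h. Hif3a, a hypoxia-inducible factor subunit that can dampen the others of its family (chromosome 1, 80223833 to 80245130), went from 0.214 at 1 h to 12.5 FPKM, from 0.0534 in control.

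The other high risers encode receptors, secreted proteins and enzymes. Tnfrsf17, a receptor of the tumour necrosis factor family best known from plasma cells, rose from 0.605 to 18.2 FPKM (fold 3.58), and Gal, the neuropeptide galanin, from 0.784 to 17.5 (3.37). Among enzymes, the retinol dehydrogenase Rdh16 rose from 0.630 to 14.3 FPKM (3.23) and the sulfotransferase Sult1a1 from 0.541 to 11.95 (3.07). The sorting receptor Sorcs1 rose by a fold of 3.01. Lcn2, a secreted binder of iron carriers, and Xdh, which makes uric acid from purines, each rose by 2.90, to 35.7 and 18.5 FPKM. With 1 added, all of these were within 1 log2 unit of control at 1 h. The plain log2 ratio of 1 h over control was 2.17 ± 0.99 for Sult1a1 (0.121 FPKM in control) and was not called.

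**Figure D1:**
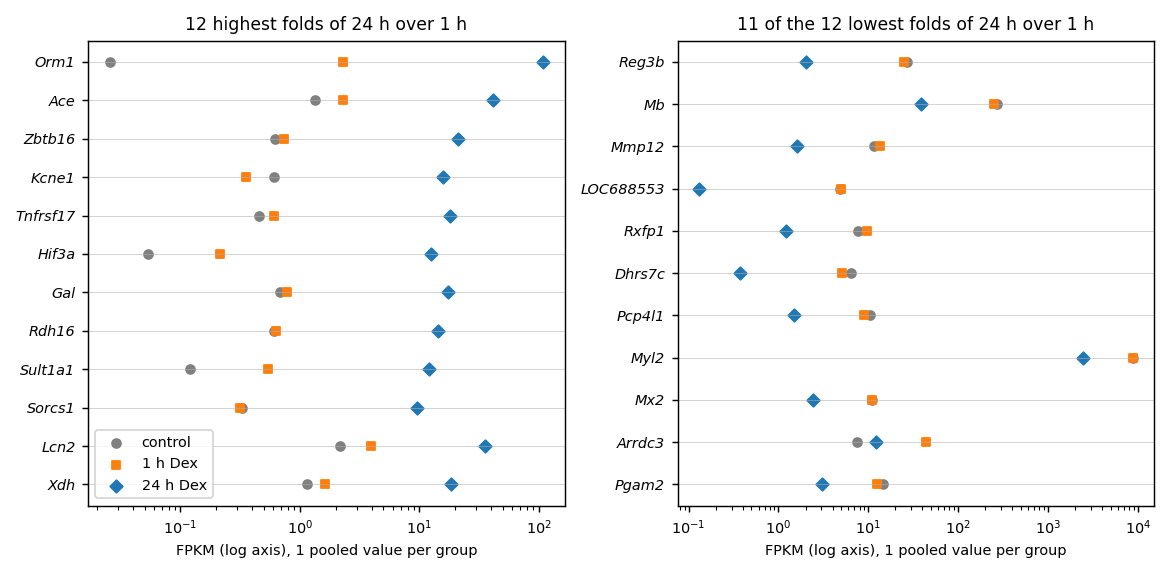
FPKM (log axis, 1 pooled value per group) of the 12 genes with the highest (left) and of 11 of the 12 with the lowest (right) fold of 24 h over 1 h among called members. Control (circles) and 1 h (squares) lie close together for most genes and 24 h (diamonds) lies apart, with Arrdc3 the exception on the right, where 1 h (44.4 FPKM) stands above both control (7.55) and 24 h (12.3).

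Muscle transcripts such as Mb and Myl2 were among the genes that fell furthest. Reg3b, a secreted lectin (chromosome 4, 174173098 to 174176337), was at 26.7 FPKM in control, 25.04 at 1 h and 2.004 at 24 h, a fold of −3.12 (plain ratio −3.64 ± 0.48). Mb, myoglobin, the oxygen store of muscle (chromosome 7, 118094390 to 118101622), was at 274, 251 and 38.7 FPKM, a fold of −2.67 (plain ratio −2.70 ± 0.32). In both, 1 h was close to control and 24 h stood alone below. Myl2, the ventricular regulatory myosin light chain (chromosome 12, 41831136 to 41835806), one of the most abundant transcripts of these cells, was at 8776, 8731 and 2456 FPKM (fold −1.83, plain ratio −1.83 ± 0.31). Pgam2, the muscle form of a glycolytic mutase, fell from 12.4 to 3.03 FPKM (−1.73), and Dhrs7c, an enzyme of the sarcoplasmic reticulum, from 5.07 to 0.372 (−2.14). Mmp12, the macrophage elastase, fell from 13.5 to 1.62 FPKM (−2.46), and Rxfp1, the relaxin receptor, from 9.56 to 1.22 (−2.25). Pcp4l1 (−1.997) and LOC688553 (−2.40) fell as well.

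The sequences before the starts of Orm1 and Sult1a1 are shown because tall GR regions were centred beside both starts in the authors' integrated sheet, which draws on a GR chromatin immunoprecipitation of another series. The region of Orm1 (chr5:83293134-83294086, rn5) was centred 292 bases before the start with a height of 55.3, the authors' highest average tag value. That of Sult1a1 (chr1:205082928-205083446, rn5) was centred 82 bases before the start with a height of 59.7. Each sequence runs 5′ to 3′ from 250 bases before to 50 after the gene start, from RefSeq on build GRCr8, and capitals mark a match to the glucocorticoid response element, searched as GNACA, any 3 bases and TGTNC, which reads the same on both strands. Orm1 lies at chr5:81788259-81788558 on the plus strand and Sult1a1 at chr1:190706063-190706362 on the minus strand.
Orm1: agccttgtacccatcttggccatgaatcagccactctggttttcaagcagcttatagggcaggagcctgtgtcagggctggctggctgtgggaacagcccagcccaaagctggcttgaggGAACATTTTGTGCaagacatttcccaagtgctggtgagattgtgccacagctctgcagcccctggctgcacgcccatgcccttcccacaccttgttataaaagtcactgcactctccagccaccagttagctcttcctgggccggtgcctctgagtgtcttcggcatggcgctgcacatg
Sult1a1: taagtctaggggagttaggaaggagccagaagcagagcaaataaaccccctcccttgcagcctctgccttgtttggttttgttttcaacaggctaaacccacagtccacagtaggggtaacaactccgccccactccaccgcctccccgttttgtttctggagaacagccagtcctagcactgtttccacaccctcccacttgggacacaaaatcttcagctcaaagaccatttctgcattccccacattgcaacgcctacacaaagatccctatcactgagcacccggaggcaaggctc
Counted from the gene start, Orm1 held 1 match with its first base at −130, and the Sult1a1 window held none. Of all 33469 promoters of this length 147 held a match (0.439%), and so did 17 of the 7538 members that had exactly 1 promoter there (0.226%).

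Setting the calls of all 3 comparisons together gave each row a course over time. A course is named transient where a gene was called at 1 h, called back toward control between 1 h and 24 h, and not called at 24 h. It is named sustained where it was called the same way at both times against control and not between them, progressive where it was called further the same way, and late where it was called at 24 h against both control and 1 h but not at 1 h. By this rule 285 rows rose late and 145 fell late, 36 were sustained higher and 5 lower, 7 were transient higher and 10 lower, and 11 were progressive, all higher. A partial return, called back but still called against control, was found for 3 rows above control and 1 below. Early calls that had neither a call at 24 h nor one between the times numbered 14 higher and 11 lower. The names describe calls of tests that share samples, and a missing call is not evidence of equal levels.

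**Figure D2:**
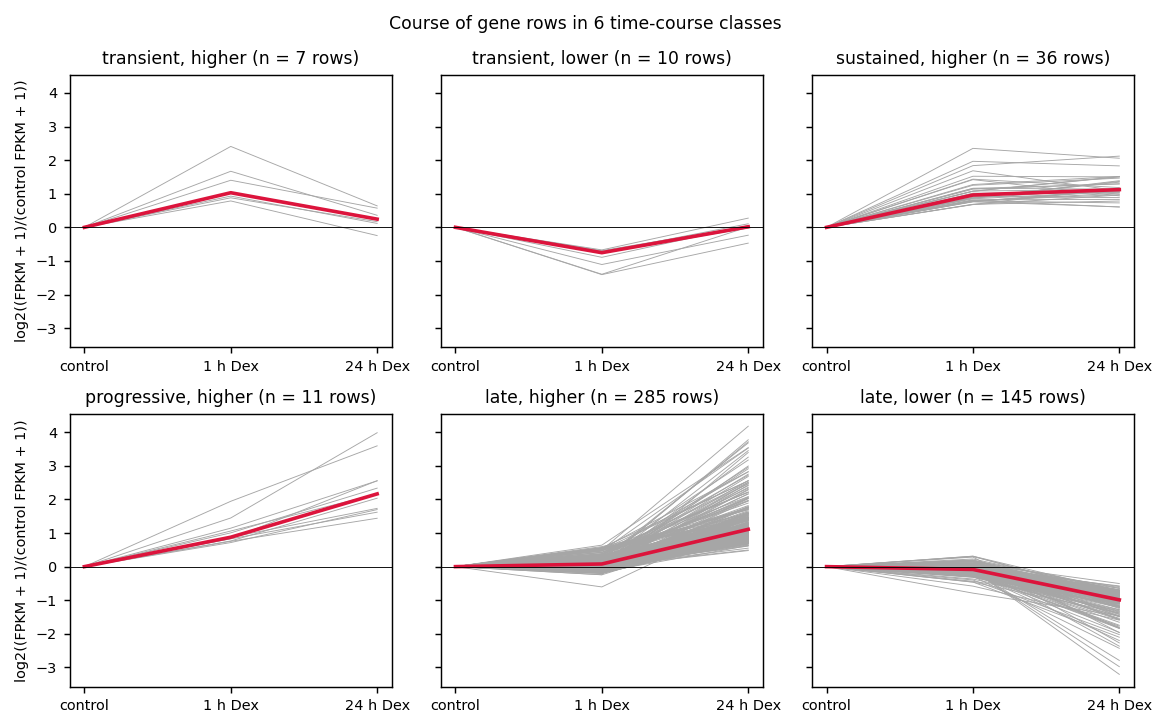
Log2((FPKM + 1)/(control FPKM + 1)) in control, at 1 h and at 24 h of Dex for the rows of 6 courses, with 1 grey line per row and the median in red. The 285 late higher rows had a median of 0.08 at 1 h and 1.11 at 24 h over control, and the 10 transient lower rows had −0.75 and 0.02.

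The 7 transient risers were led by 2 genes of 1 family. Arrdc3, an arrestin-domain protein that takes part in receptor trafficking (chromosome 2, 8617991 to 8627696), was at 7.55 FPKM in control, 44.4 at 1 h and 12.3 at 24 h, so that 24 h stood below 1 h by a fold of −1.77 (plain ratio −1.85 ± 0.35). Its relative Arrdc2 (chromosome 16, 20209577 to 20213710) was at 2.69, 10.7 and 3.73 FPKM, a fold of −1.31 (plain ratio −1.52 ± 0.37). Both were highest at 1 h, as the definition of this course requires. The zinc finger gene Zfp189 was at 5.13, 15.2 and 8.10 FPKM and Cish, an inhibitor of cytokine signalling, at 9.48, 20.4 and 11.4. Rgs1, which shortens G protein signals, and Relt, a receptor of the tumour necrosis factor family, followed the same course at low levels, with 1.82 and 5.997 FPKM at 1 h. The seventh was Ppp1r3b, a glycogen-targeting phosphatase subunit, at 2.75, 5.47 and 2.17 FPKM.

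A partial return was the course of Pdk4, the kinase that restrains entry of pyruvate into oxidation (chromosome 4, 30453697 to 30463700). Pdk4 was at 4.06 FPKM in control, 32.8 at 1 h and 10.7 at 24 h (fold of 24 h over 1 h −1.53, plain ratio −1.62 ± 0.35). Its 24 h value lay between the other groups. Abra, an actin-binding activator of serum response factor signalling in muscle, was at 6.69, 35.3 and 15.2 FPKM (−1.16). Sesn1, a stress protein that restrains mTOR, was at 7.31, 28.7 and 17.8 FPKM (−0.66), but its locus holds another row and its value is uncertain. The 1 gene that partly returned from below was Dusp5, a phosphatase of ERK kinases, at 8.89, 2.65 and 5.04 FPKM.

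Of the 10 transient fallers 4 stand on the list of immediate early genes, which are switched on within minutes of a stimulus. That list holds 22 of the 10659 tested members, and its other 18 were not called between the times. Cxcr4, the receptor of the chemokine Cxcl12 (chromosome 13, 50394127 to 50398032), was at 19.2 FPKM in control, 6.67 at 1 h and 19.4 at 24 h, a rise from 1 h of 1.41 (plain ratio 1.54 ± 0.36). Phlda1, an early gene of growth factor signalling, was at 42.5, 15.4 and 30.4 FPKM, and Hes1, a repressor downstream of Notch, at 34.5, 15.5 and 29.2. All 3 were lowest at 1 h, which the definition of this course favours. Junb, a subunit of the AP-1 transcription factor (chromosome 19, 37068594 to 37070379), was at 39.9, 23.5 and 43.0 FPKM (0.84, plain ratio 0.87 ± 0.32). Egr1, an early transcription factor, was at 42.2, 25.7 and 43.3 FPKM (0.73), and Klf10, a TGF-beta response factor, at 14.0, 7.08 and 14.6 (0.95). The kinase gene Nuak2 (7.09, 3.74 and 7.02 FPKM), Ier5 (51.9, 31.3 and 51.2), Arc (2.18, 0.9988 and 2.85) and the small G protein gene Rnd1 (45.2, 26.9 and 45.9) completed the group. Of these 10 genes 6 stood above control at 24 h and 4 below, with a median fold over control of 0.02.

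The window before Junb is shown because 6 GR regions were assigned to this transient faller, the nearest (chr19:37070388-37070594, rn5) centred 112 bases before the start. It lies at chr19:40080876-40081175 on the plus strand of GRCr8, from RefSeq, and holds no match to the element searched in Orm1, so it has no capitals. In rn5 the authors' distances place the start at the higher coordinate, so the strand differs between the builds.
Junb: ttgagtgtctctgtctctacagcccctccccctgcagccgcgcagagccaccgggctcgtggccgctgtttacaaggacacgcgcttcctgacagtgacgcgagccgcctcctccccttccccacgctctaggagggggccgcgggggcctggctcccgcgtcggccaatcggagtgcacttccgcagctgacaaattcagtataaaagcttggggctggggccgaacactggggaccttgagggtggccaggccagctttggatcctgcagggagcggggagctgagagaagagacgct
Across all 7 transient fallers with 1 promoter in the table, and the 5 such transient risers, no window held the element. Among all members with 1 promoter the share was 0.226% (17 of 7538), so sets this small cannot show a difference.

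Most genes that rose at 1 h were still called above control at 24 h, and most that fell at 1 h were no longer called below it. Of the 71 members called higher at 1 h (0.667% of those tested), 50 were still called higher at 24 h, 10 were called back between the times and 11 were called further up. Of the 27 called lower (0.254%), 6 were still called lower at 24 h, 11 were called back and none was called further down. By level, 21 of these 27 lay below control at 24 h, with a median fold of −0.35. The median fold between the times was 0.01 for the first set and 0.66 for the second, with 35 of 71 and 24 of 27 rows moving back toward control. Both sets were chosen by their 1 h value, which also enters the fold between the times, so movement back toward control is favoured. The control value enters both comparisons with control, so a call that persists at 24 h is favoured too. Of all tested members 4.29% were called higher and 2.05% lower at 24 h over control. The split between the directions was described and not tested.

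**Figure D3:**
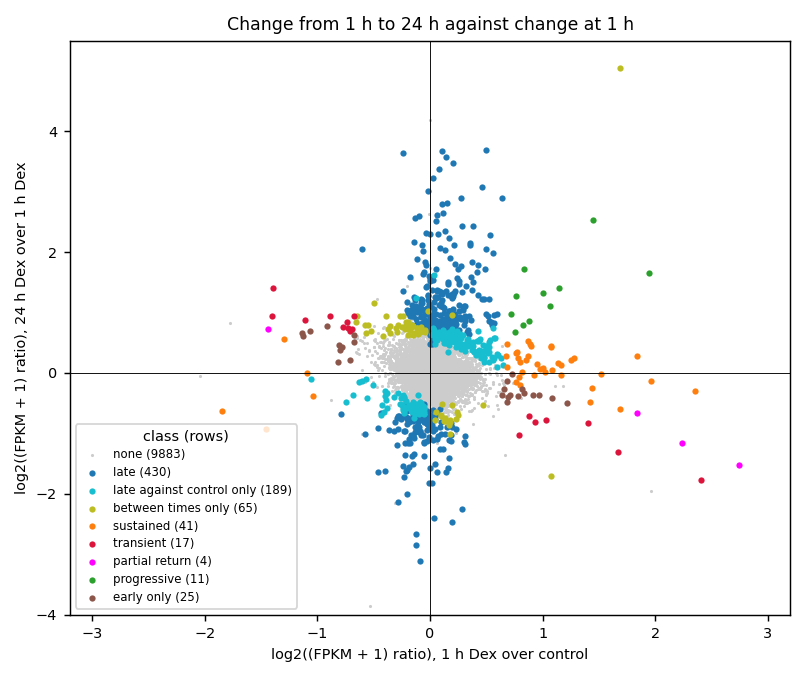
Log2 fold (1 added) of 24 h over 1 h (vertical) against that of 1 h over control (horizontal) for the members, coloured by course, with the number of rows in the key. The axes share the 1 h value, and 9 uncalled rows lie outside the limits. Late rows (blue) spread along the vertical axis, transient rows (red) lie opposite to their early change, and progressive rows (green) stand in the upper right. These positions follow largely from how the courses are defined.

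Sustained risers were above control at both times, as their definition requires. Per1, a repressor of the circadian clock (chromosome 10, 55430183 to 55439080), was at 8.02 FPKM in control, 45.0 at 1 h and 36.5 at 24 h. Klf15, a transcription factor of cardiac metabolism (chromosome 4, 186906049 to 186918645), was at 6.22, 27.2 and 24.7 FPKM, and Sgk1, a kinase that regulates ion transport, at 8.89, 34.3 and 42.0. In these the values at 1 h and 24 h were close and control stood below. The plain log2 ratio of 24 h over 1 h was −0.30 ± 0.31 for Per1, −0.14 ± 0.32 for Klf15 and 0.29 ± 0.31 for Sgk1. Flrt3, an adhesion receptor, was at 1.29, 5.56 and 5.47 FPKM and Pfkfb3, a regulator of glycolysis, at 6.45, 19.1 and 15.9. Nfkbia, the inhibitor of NF-kB, was at 16.3, 54.6 and 35.8 FPKM, and its decline between the times was not called (−0.60). Red blood cell markers Hba1, Hba2 and Hbb-b1 were 3 of the 36 sustained risers, with a summed level of 90.3 FPKM in control, 181 at 1 h and 194 at 24 h. The list's other members with a row, Alas2, Hemgn and Slc4a1, stayed under 1 FPKM in every group. Hba1 and Hba2 are near-identical copies, so their separate values are uncertain. The part of red blood cells in other sustained rises was not tested. The sustained fallers included the kinase Plk2 (82.4, 32.9 and 48.8 FPKM) and G0s2, an inhibitor of lipolysis (40.8, 18.7 and 18.7). The other 3 rows, of the ribosomal RNA Rn5-8s and of LOC310926, stand on repeated symbols and are uncertain.

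Progressive risers gained at both steps. Rgcc, a regulator of the cell cycle (chromosome 15, 65214321 to 65227156), was at 6.26 FPKM in control, 18.8 at 1 h and 114 at 24 h (24 h over 1 h 2.54, plain ratio 2.60 ± 0.34). Fam46b, a gene of a family of RNA-modifying enzymes (chromosome 5, 155354241 to 155361522), was at 4.85, 21.5 and 69.8 FPKM (1.65), and Fkbp5, a co-chaperone of the receptor (chromosome 20, 10177057 to 10262014), at 8.97, 16.8 and 57.7 (1.72, plain ratio 1.78 ± 0.31). In each the groups rose in order of time, as the definition of this course requires. The transporters Slc10a6 (1.34, 4.18 and 12.8 FPKM) and Slc28a2 (1.56, 3.35 and 9.50) and the claudin Cldn1 (0.116, 1.24 and 4.64) shared this course, with the locus of Slc10a6 holding another row. Over all 11 the median was 1.56 FPKM in control, 3.68 at 1 h and 9.50 at 24 h.

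Early calls without a later one included Cebpd, a transcription factor of the acute-phase response (21.2 FPKM in control, 50.5 at 1 h and 35.5 at 24 h), and Rasd1, a small G protein known as dexamethasone-induced (2.82, 7.10 and 5.09). At 24 h both lay between the other values. Below control were Lif, a cytokine of the interleukin-6 family (8.29, 3.23 and 5.68), Socs3, an inhibitor of cytokine signalling (5.07, 1.89 and 3.67), and Ier3, an early survival gene (109, 49.3 and 76.0). Gja1, the gap junction protein connexin 43, was at 127, 71.6 and 81.2 FPKM, and its 24 h value stayed near that of 1 h without a call against control. All 14 early risers were above control at 24 h and all 11 early fallers below it. A call at 1 h with neither of the other calls favours 24 h values between those of control and 1 h.

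A further 47 rows rose and 18 fell between the times with no call against control at either time. Of the 47, 45 were below control at 1 h and all 47 were above it at 24 h. All 18 that fell were above control at 1 h and below it at 24 h. The definition of this group, a call between the times and none against control, favours such values. By its calls Orm1 belongs to the 47, as 1 of the 2 above control at 1 h. Ccl2, a chemokine for monocytes (chromosome 10, 69047090 to 69048889), was at 20.9 FPKM in control, 14.5 at 1 h and 33.6 at 24 h (1.16, plain ratio 1.21 ± 0.37), and its neighbour Ccl7 was at 2.92, 1.99 and 4.74. Dusp4, a MAP kinase phosphatase, was at 17.1, 10.5 and 21.2 FPKM (0.94), and Mfap2, a microfibril protein, at 11.6, 9.61 and 19.5 (0.95). Eya2, a transcription cofactor, was listed at 0 at 1 h and had 1.03 FPKM at 24 h. Among those that fell, Tmeff1 was at 6.11, 7.05 and 3.57 FPKM, Cacng6, a calcium channel subunit gene, at 2.14, 2.55 and 0.754, and Mpeg1, a pore-forming protein of macrophages, at 13.1, 14.4 and 7.93. Another 122 rows were called higher and 67 lower at 24 h against control without a call between the times. At 1 h, with no call, 121 of the 122 lay above control and all 67 lay below it. A call against control with none between the times favours such values in between.

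Lists of genes by pathway showed where the late calls lay, beside 4.94% of all tested members called and a median fold of −0.01. The interferon response, the antiviral genes switched on by factors such as Stat2 and Irf9, had the lowest median, −0.56. Among its 25 tested members 11 fell (44.0%) and 14 were not called. All 25 stood below 1 h at 24 h, with folds from −1.83 to −0.21. The antiviral GTPase Mx2 was at 10.9 FPKM in control, 11.1 at 1 h and 2.40 at 24 h (plain ratio −2.21 ± 0.41), and the ubiquitin-like Isg15 at 15.1, 17.1 and 5.79 (fold −1.41). Usp18, which removes Isg15 from proteins, was at 10.9, 11.9 and 4.39 FPKM (−1.26), and Oas1a, an RNA-sensing synthetase in a locus shared with another row, at 5.64, 5.98 and 2.38 (−1.05). For these genes 1 h was near control and 24 h below both. The other 7 were Irf7, Ifi44, Rtp4, Oasl2, Oasl, Bst2 and Mx1, with folds of −0.93, −0.93, −0.90, −0.88, −0.82, −0.80 and −0.62. Stat2 and Irf9 were not called (−0.21 and −0.27).

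Windows before 4 of the interferon genes that fell are shown because this list had the lowest median of the lists. All 4 belong to the 5 fallers with a match counted below, so they are examples and do not stand for the list. Capitals mark matches to the core of the interferon-stimulated response element, searched as GAAA, any 2 bases and GAAA, or TTTC, any 2 bases and TTTC on the other strand. They lie on GRCr8 at chr1:205799974-205800273 (minus strand) for Irf7, chr12:41330216-41330515 (plus) for Oas1a, chr16:18254918-18255217 (minus) for Bst2 and chr2:243303791-243304090 (minus) for Ifi44, from RefSeq.
Irf7: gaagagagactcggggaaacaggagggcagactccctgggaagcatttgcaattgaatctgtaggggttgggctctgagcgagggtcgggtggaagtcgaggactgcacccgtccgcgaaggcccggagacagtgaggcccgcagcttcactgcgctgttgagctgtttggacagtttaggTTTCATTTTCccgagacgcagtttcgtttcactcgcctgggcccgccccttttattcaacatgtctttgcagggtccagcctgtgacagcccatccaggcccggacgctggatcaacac
Oas1a: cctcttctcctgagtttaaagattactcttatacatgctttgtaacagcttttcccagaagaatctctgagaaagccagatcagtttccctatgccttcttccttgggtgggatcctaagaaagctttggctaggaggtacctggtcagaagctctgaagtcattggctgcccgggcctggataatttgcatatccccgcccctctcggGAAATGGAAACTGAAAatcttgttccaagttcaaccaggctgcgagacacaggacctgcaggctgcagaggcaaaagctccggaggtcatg
Bst2: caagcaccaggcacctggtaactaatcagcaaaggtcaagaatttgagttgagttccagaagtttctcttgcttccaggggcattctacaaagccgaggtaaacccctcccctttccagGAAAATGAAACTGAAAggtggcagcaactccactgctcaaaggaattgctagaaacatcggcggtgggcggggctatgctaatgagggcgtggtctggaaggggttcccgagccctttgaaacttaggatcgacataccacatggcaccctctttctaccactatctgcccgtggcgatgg
Ifi44: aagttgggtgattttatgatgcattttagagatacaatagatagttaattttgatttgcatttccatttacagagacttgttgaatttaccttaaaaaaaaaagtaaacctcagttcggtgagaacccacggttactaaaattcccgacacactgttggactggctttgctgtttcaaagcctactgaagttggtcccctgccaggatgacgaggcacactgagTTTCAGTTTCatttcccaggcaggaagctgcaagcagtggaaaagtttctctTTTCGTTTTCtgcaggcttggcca
Counted from the gene start, the match of Irf7 begins at −69. Those of Oas1a begin at −41 and −35 and those of Bst2 at −131 and −125, overlapping in both genes. Those of Ifi44 begin at −26 and 27. Of 18 interferon list members with exactly 1 promoter, 11 held a match (61.1%), as did 5 of the 7 that fell (71.4%), beside 208 of 7538 members (2.76%) and 1312 of all 33469 promoters (3.92%). A match is a description of letters and not of binding.

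**Figure D4:**
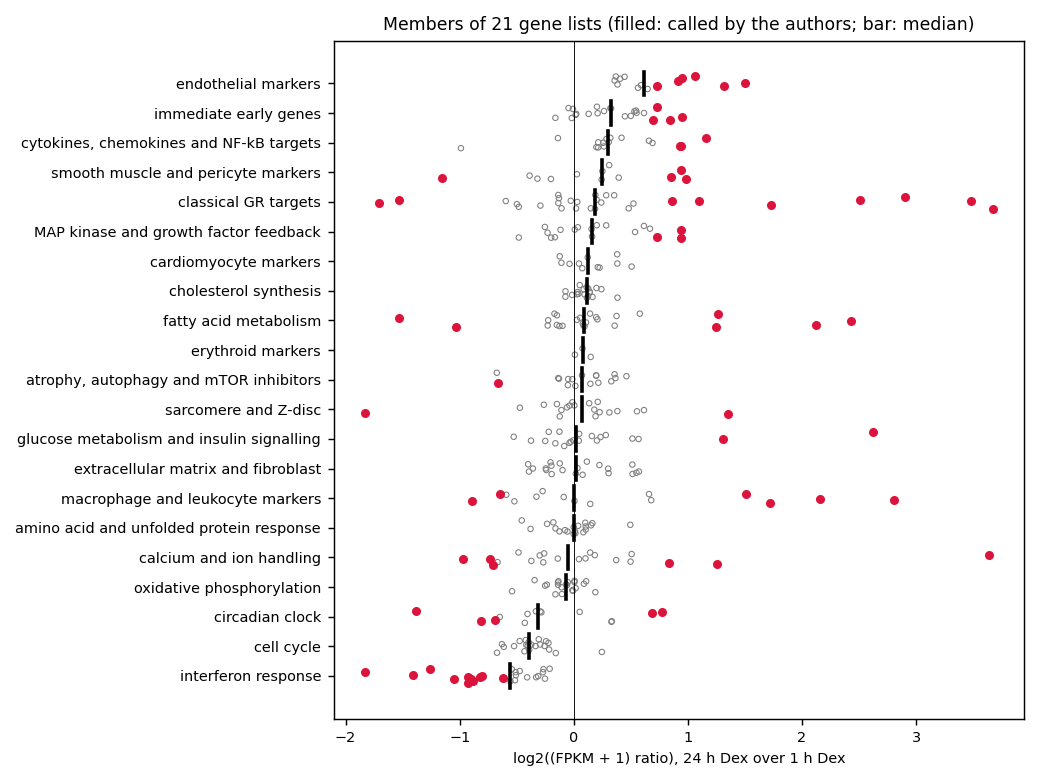
Log2 fold (1 added) of 24 h over 1 h for members of 21 gene lists, ordered by the list median (black bar), with genes called by the authors filled in red. All interferon response members lie left of 0 (median −0.56) and all endothelial markers right of it (median 0.62), while the GR targets spread from −1.71 to 3.67.

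Classical GR targets moved both ways between the times. Of 29 tested members 7 rose, 2 fell and 20 were not called (median 0.19). The share called was 31.0%, beside 4.94% of all tested members. Besides Zbtb16, Hif3a and Lcn2, the risers were Cdkn1c, an inhibitor of cell division (4.98 FPKM in control, 5.21 at 1 h and 34.4 at 24 h), Fkbp5, Tgm2, a transglutaminase (70.9, 71.4 and 154), and Glul, glutamine synthetase (41.3, 76.6 and 140). The fallers were Pdk4 and Rgs2, a brake on G protein signals (25.5, 54.8 and 16.1), whose locus holds another row. Tsc22d3, the leucine zipper GILZ, was at 42.5, 79.3 and 111 FPKM without a call between the times (0.48). Against control 14 of the 29 were called higher at 1 h and 18 at 24 h, and none was called lower at either time.

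A few early response genes rose from 1 h to 24 h. Of 22 tested immediate early genes 4 rose (Arc, Junb, Egr1 and Ier5), none fell and 18 were not called, with 18 of 22 above 0 and a median of 0.32. Fos stood at 8.98, 11.9 and 10.5 FPKM in control, at 1 h and at 24 h, and was not called. Of 18 genes of MAP kinase and growth factor feedback 3 rose (Dusp4, Phlda1 and Dusp5), with 12 of 18 above 0 and a median of 0.16. Of 16 cytokines, chemokines and NF-kB targets 3 rose (Ccl2, Ccl7 and Ccl20, the last at 1.78, 2.25 and 5.19 FPKM), with a median of 0.30. None fell in either list. Arc, Junb, Egr1, Ier5, Dusp4, Phlda1, Dusp5, Ccl2 and Ccl7 were all lower at 1 h than in control, and none of them was called above control at 24 h. Other members were: at 24 h 4 immediate early genes were called above control and none below. Of the cytokine list 2 were called above and none below, and of the feedback list 1 above and 1 below.

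Among muscle genes single members moved, and most were not called. Of 20 tested sarcomere and Z-disc genes Des, the intermediate filament desmin, rose from 466 to 1191 FPKM (446 in control; plain ratio 1.35 ± 0.31), Myl2 fell, and 18 were not called (median 0.07). The heavy chains Myh6 (535, 476 and 557 FPKM) and Myh7 (1672, 1532 and 1771) were not called. Of 20 calcium and ion handling genes 3 rose and 3 rows fell (median −0.05). The risers were Kcne1, the T-type calcium channel Cacna1h (11.9, 12.6 and 31.3 FPKM) and the potassium channel Kcnj5 (10.6, 12.5 and 23.0), the last pair in loci with another row. The fallers were the pacemaker channel Hcn4 (6.67, 5.15 and 2.14 FPKM) and both rows of the potassium channel subunit Kcnip2, which is uncertain. Atp2a2, the calcium pump of the sarcoplasmic reticulum, was at 463, 468 and 391 FPKM, and Ryr2, the calcium release channel, at 27.2, 24.0 and 34.5, neither called.

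Metabolic lists held a few large late risers. Of 25 tested fatty acid metabolism rows 4 rose, 2 fell and 19 were not called (median 0.08). The fatty acid carrier Fabp4 was at 11.1 FPKM in control, 13.1 at 1 h and 60.3 at 24 h (2.12), while the heart carrier Fabp3 went from 600.2 to 294 (−1.03) in a locus with another row. Fabp4 is also abundant in capillary endothelium. The lipase Pnpla2 rose on both of its 2 rows, from 23.5 to 57.6 and from 23.8 to 57.9 FPKM. The repeated symbol makes these values uncertain, and both rows count among the 4. In glucose metabolism and insulin signalling 2 of 20 rose, the carbohydrate-sensing factor Mlxipl (0.114, 0.163 and 6.16 FPKM; 2.62) and the glucose transporter Slc2a1 (43.1, 46.3 and 116; 1.30), none fell and the median was 0.02. In the circadian clock members moved both ways. Of 14 tested members the activators Arntl (12.8, 13.7 and 22.7 FPKM) and Npas2 (0.674, 0.896 and 2.24) rose, and Per3 (7.19, 6.34 and 1.82), Dbp (7.70, 6.02 and 2.99) and Tef (11.7, 11.7 and 6.85) fell, with 9 not called and a median of −0.31. Dbp and Tef are output factors of the clock.

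In 7 lists no member was called higher or lower between the times by the authors' deposited test. Of 22 cell cycle genes 1 was above its 1 h level, Ccnd1, and the list had a median of −0.39 and 5 members at a p under 0.05 before adjustment in the authors' deposited table. The mitotic kinase Cdk1 was at 99.1, 97.2 and 72.3 FPKM and the replication clamp Pcna at 98.1, 114 and 85.5. The medians and the counts below that p were −0.07 and 1 of 21 for oxidative phosphorylation, 0.00 and 2 of 20 for the amino acid and unfolded protein response, and 0.11 and 0 of 19 for cholesterol synthesis. They were 0.02 and 4 of 21 for matrix and fibroblast genes, 0.12 and 1 of 11 for cardiomyocyte markers, and 0.08 and 0 of 3 for globins. In the list of atrophy, autophagy and mTOR inhibitors 1 of 17 was called, Sesn1 (median 0.07). The abundant Atp5b, a subunit of ATP synthase, stood at 1858, 1839 and 1671 FPKM, Ctgf, a matrix protein, at 2392, 2364 and 2912, and the globin Hba1, a mark of red blood cells, at 48.2, 97.5 and 103. Against control the 3 globins were called higher at both times. The cell cycle gene Mcm5 (29.9, 27.9 and 17.1 FPKM) was called lower at 24 h against control, the only call of its list there. In the same comparison 1 matrix and fibroblast gene was called higher.

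Listed markers of other cell types moved between the times beside these groups. Which cells expressed each marker was not tested. All 14 tested endothelial markers stood above 1 h at 24 h (median 0.62), 6 of them called (42.9%), and their summed level was 258, 253 and 376 FPKM in control, at 1 h and at 24 h. Pecam1, an adhesion molecule of endothelial junctions, was at 9.33, 10.1 and 26.7 FPKM, the mucin Emcn at 1.94, 2.29 and 8.30, and Kdr, a receptor of VEGF, at 2.11, 3.45 and 7.59. Cldn5, Egfl7 and Vwf rose as well, and Flt1, Tek and Tie1 were not called. None of the members was at 0. In bulk samples more cells of a type and more RNA per cell cannot be told apart, nor can fewer cells and less RNA per cell. The part of endothelial cells in the rises of Ace and Fabp4, which they also express, was not tested.

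Macrophage markers split. Of 15 tested members 4 rose, 2 fell and 9 were not called (median 0.01), and the list sum was 174, 181 and 276 FPKM. The complement genes C1qc (2.89, 3.32 and 29.3 FPKM; 2.81) and C1qb (3.44, 4.69 and 24.3; 2.15), the scavenger receptor Cd163 (0.0542, 0.0931 and 2.60; 1.72) and the mannose receptor Mrc1 (3.66, 5.08 and 16.3; 1.51), whose locus holds another row, rose. The macrophage antigen Emr1 (1.26, 1.51 and 0.351 FPKM) and the leukocyte phosphatase Ptprc (1.94, 2.46 and 1.21) fell, and Csf1r, the growth factor receptor that defines the lineage, was at 6.88, 6.99 and 7.02 FPKM. The part of macrophages in the falls of Mmp12 and the interferon genes was not tested. Of 12 smooth muscle and pericyte markers 3 rose, Myh11 (70.9, 58.8 and 113 FPKM), Lmod1 (25.4, 22.1 and 44.8) and Abcc9 (7.90, 8.02 and 15.2), and Rgs5, a pericyte marker, fell (22.7, 19.98 and 8.40), with a median of 0.25 and sums of 8986, 7812 and 9735 FPKM.

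GR regions, taken from the sheet described above, were set beside the courses. Of all members 48.0% had at least 1 assigned region (exact Clopper-Pearson 95% interval 47.1 to 49.0%) and 29.4% had one centred within 1 kb of the start. Among late risers 56.8% (50.9 to 62.7%) had a region, but 21.1% (16.5 to 26.3%) had one within 1 kb, and the nearest lay a median of 3315 bases from the start, beside 392 bases for all members with a region. Among late fallers 26.2% (19.3 to 34.2%) had a region and 8.28% had one within 1 kb. The progressive risers stood at 81.8% (9 of 11), the transient risers at 6 of 7 and the transient fallers at 8 of 10, with wide intervals. Intervals cover counting error over genes only. The share with a region also moved with level, from 34.2% of members under 5 FPKM to 61.4% of those at 100 FPKM or above. Over the same levels the share within 1 kb moved from 15.3% to 44.0%. Late fallers were low, with a median of 6.56 FPKM at 1 h and 2.72 at 24 h. Late risers were low at 1 h, with medians of 5.18 and 15.9 FPKM, beside 15.3 and 15.4 for all members. The part of level in these shares was not tested. Among named genes, Zbtb16 had 15 regions, the tallest with a height of 126 and 75062 bases into the gene, and Hif3a had 3, the tallest with a height of 75.2 at 1579 bases before the start. None of Ace, Xdh, Mb, Reg3b or Mmp12 had one.

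**Figure D5:**
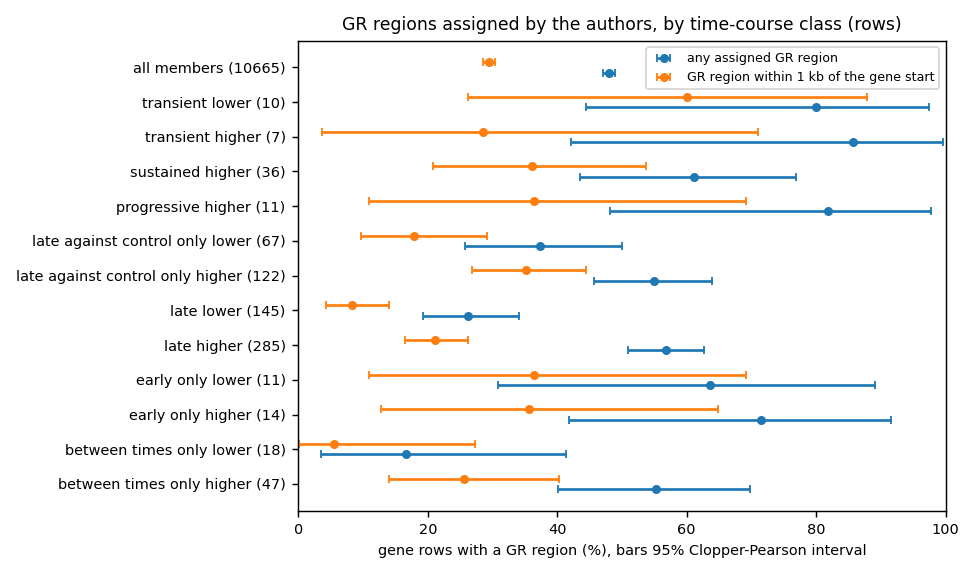
Share of gene rows (%) with any GR region assigned by the authors (blue) and with one within 1 kb of the gene start (orange), by course, with bars for the 95% Clopper-Pearson interval and the number of rows in brackets. The late lower rows (26.2% and 8.28%) lie left of all members (48.0% and 29.4%).

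By size alone 171 members were at least 2-fold higher (1.60%) and 76 at least 2-fold lower (0.713%) at 24 h. Of these 247 rows (2.32%) 220 were called and 27 were not. Of the 27, 12 were microRNA genes and 6 had loci shorter than 200 bases, such as Mir542, listed at 4323 FPKM at 1 h and at 0 in the other groups. None of the 220 called rows was a microRNA gene. No fold is given against a value listed at 0. Uncalled rows with large differences in longer genes included Th, the first enzyme of catecholamine synthesis, at 0.0254, 0.0159 and 5.27 FPKM (p 0.153 in the authors' deposited table), and Ttr, a thyroid hormone carrier, at 0.177, 0.0554 and 2.11 in a locus of 950447 bases shared with other rows. Another 46 rows were called between the times but stayed under 1 FPKM and are not members.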

How the data were processed

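RNA of the 3 groups was sequenced by a service company, and the submitters' processing notes name TopHat, Cufflinks, Cuffdiff and the build rn5 with no version or role. Per the file headers, 1 FPKM per gene was deposited for each group, and for each of 3 pairs of groups a test statistic (used as a score of the authors' test), a p-value and a q-value. Adjusting all 34896 deposited p-values together by Benjamini-Hochberg gave the deposited q-values to within 5.22e-07. The smallest deposited p-value was 5e-05. The sources used here do not say how libraries were scaled. Depth is unknown, so single FPKM values carry no interval.

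Folds were computed as log2((FPKM + 1)/(FPKM + 1)) from the authors' FPKM. The SE is the absolute plain log2 ratio divided by the deposited test statistic. In the median gene the normal quantile of the authors' p-value was 1.42 times the statistic, which places this SE on the large side. No test between groups was run here, since each group has 1 value. Calls are the authors', and the labels do not say whether libraries came from separate cultures.

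Members, lists and classes were chosen with earlier results of these data known. Of 423 entries on 21 lists 406 had a row, 2 by an older symbol of the same gene. Named genes were the 12 highest and 12 lowest folds among called members, up to 6 per course and direction, up to 4 called per list (the 2 most abundant members of a list without calls), and Nr3c1. Genes named beyond this rule, such as Ppp1r3b, Rnd1, Th and the remaining list members, were chosen after their values were seen. Some genes that met the rule stand only in the counts, and a few are not reported here. Members on a repeated symbol (383) or a shared locus (929) are uncertain where named. Spreadsheet dates had replaced 24 symbols, 16 of them members, and those rows were not named. In addition, 5 rows were marked as having too many fragments and are not interpreted.

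GR regions came from a sheet built on ChIP data of another series, with DMSO as their control. Region height is a deposited signal, the highest mean number of tags the authors found in a region. A log2 ratio over control was deposited beside it. The authors assigned regions to genes, 8514 regions in 11363 rows. The 6 per-sample columns of that sheet were left out. Promoter windows came from RefSeq (GRCr8), and 7538 member symbols had exactly 1. Alternatives were a pseudocount of 0.1, the plain ratio, a floor of 5 FPKM or none, a q-value threshold of 0.01, a 1.5-fold minimum, adjustment within the comparison, centring on the median, classes from 2-fold size, and rows with a symbol and locus of their own. Scripts were tested on simulated data. Python 3.11.15, pandas 2.3.3, numpy 2.4.6, scipy 1.17.1 and matplotlib 3.10.9 were used.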

Additional observations from a re-analysis of the deposited data

Results flagged for a closer look

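Rgs2 and Il12a stood on opposite sides of control at the 2 treated times, each by at least 0.5 in log2 with 1 added, and were called between the times. Rgs2 was at 25.5 FPKM in control, 54.8 at 1 h and 16.1 at 24 h, a fold of 24 h over 1 h of −1.71, in a locus that holds another row. Neither of its differences from control was called. Il12a, a subunit of the cytokines interleukin-12 and interleukin-35, was at 3.63, 2.05 and 11.6 FPKM, a fold of 2.05, and it was called above control at 24 h. With 1 value per group, the difference between the times in the response to Dex was not tested apart from the authors' own test of 24 h against 1 h.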

How the results depend on the processing

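No paired analysis was possible because each group has 1 value per gene, and for the same reason no library could be left out. Adjusting within the comparison (380 higher and 189 lower), requiring a 1.5-fold change (350 and 168), dropping the FPKM filter (385 and 188) and keeping rows with a symbol and locus of their own (324 and 159, added after seeing the data) left the counts of calls within 1.5 times of 354 and 173. The genes called lower numbered 102 at a q-value of at most 0.01 and 112 at a floor of 5 FPKM. Members at least 2-fold apart numbered 266 higher and 145 lower with a pseudocount of 0.1, and 279 and 155 with the plain ratio, which counts more genes near 0 by construction. With classes set by 2-fold size in place of calls, late rows numbered 142 higher and 55 lower, late against control only 67 and 27, between times only 19 higher, early only 7 higher, sustained 17 higher, progressive 6 higher, transient 4 lower, partial return 0 lower, and 1 row overshot control. At a q-value of at most 0.01, late rows numbered 87 lower, late against control only 42 lower, between times only 9 lower, early only 5 lower, transient 4 higher and 4 lower, and partial return 0 lower. At a floor of 5 FPKM, late rows numbered 96 lower, late against control only 41 lower and between times only 7 lower. Without a filter 1 row was progressive lower, and among rows with a symbol and locus of their own 2 were sustained lower. Apart from that construction, the cause of these shifts was not tested. The medians of all 21 lists and the folds of all named genes kept their direction under the pseudocount of 0.1 and, where computed, the plain ratio. Depth is unknown, and low genes carried larger SEs, with a median of 0.44 under 5 FPKM and 0.31 at 100 FPKM or above.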
